A study of Mus musculus with 2 samples.

Results

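SRCAP peaks were examined at the promoters of the 10 genes that encode subunits of the EP400-TIP60 complex and not of the SRCAP complex: Ep400, Kat5, Trrap, Epc1, Epc2, Ing3, Mbtd1, Brd8, Meaf6 and Mrgbp. These genes were chosen by name, out of 21938 protein-coding genes, with earlier results of these data known; no peak value enters the rule. Promoters were taken as the 1000 bp before and the 500 bp after every transcription start site (TSS) that GENCODE mouse release 21 annotates for a gene, and a gene was called bound in a replicate when at least 1 bp of a peak of that replicate lay in such a window. The data are CUT&Tag peak lists of SRCAP in SYAT cells, in 2 replicates of 1 group. SYAT is a mouse embryonic stem cell (mESC) line of the CGR8 background in which both Srcap alleles are fused to YPet, a yellow fluorescent protein, and to a degron that responds to auxin. It comes from 1 homozygous clone that was transduced with a lentivirus expressing the plant receptor OsTir1 from the EF1a promoter, and then sorted. Both samples were kept in auxinole, an inhibitor of the auxin response that prevents basal loss of SRCAP, received no auxin, and were held in serum and LIF for the days before the experiment. In each, 200000 cells were incubated with an antibody against GFP that also binds YPet, and Tn5 transposition lasted 1 h in the presence of Drosophila nuclei as spike-in. The study describes its replicates in general as cells cultured and treated independently, and its CUT&Tag as done in duplicate. Peak lists hold no expression values, so the labelled cell type could not be checked against marker genes.

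SRCAP and EP400 are related ATPases that exchange histone H2A for the variant H2A.Z in nucleosomes. EP400 works in a large assembly with the acetyltransferase TIP60, encoded by Kat5, which acetylates histones H4 and H2A. The SRCAP and EP400-TIP60 complexes have several subunits in common, including the helicases RUVBL1 and RUVBL2, and the INO80 complex is a further remodeler of the same family.

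Replicate 1 held 6158 peaks and replicate 2 held 12958. Each peak carries a whole-number score of the authors' peak caller, read as 10 times the -log10 of its q-value. The sequencing depth is unknown, so score values were ranked within a list only, counts of bound genes are given beside the share of all genes in the same list, and a missing peak is not evidence that SRCAP was absent. With 1 group of 2 samples no comparison between conditions could be tested, and the values below are descriptive.

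SRCAP peaks lay at the promoters of 5 of the 10 genes in at least 1 replicate, beside 34.0% of all protein-coding genes. Epc1, Mbtd1 and Brd8 had a promoter peak in both, Ep400 in replicate 1 alone, and Kat5 in replicate 2 alone. No promoter peak was called at Trrap, Epc2, Ing3, Meaf6 or Mrgbp in either list. The count was thus 4 of 10 genes (40%) in each replicate and 3 of 10 (30%) in both. Among all protein-coding genes, 15.7% were bound in replicate 1, 30.4% in replicate 2 and 12.0% in each of them. Each gene of the list counts for 10 percentage points, so in replicate 2 the list stood within 1 gene of the background. The counts in replicate 1 and in both also rest on few genes, and no difference from the background is read from them. Of all genes bound in replicate 1, 76.7% were bound in replicate 2 as well, beside 3 of the 4 members. In the other direction the share was 39.7%, beside 3 of 4 members.

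**Figure D1:**
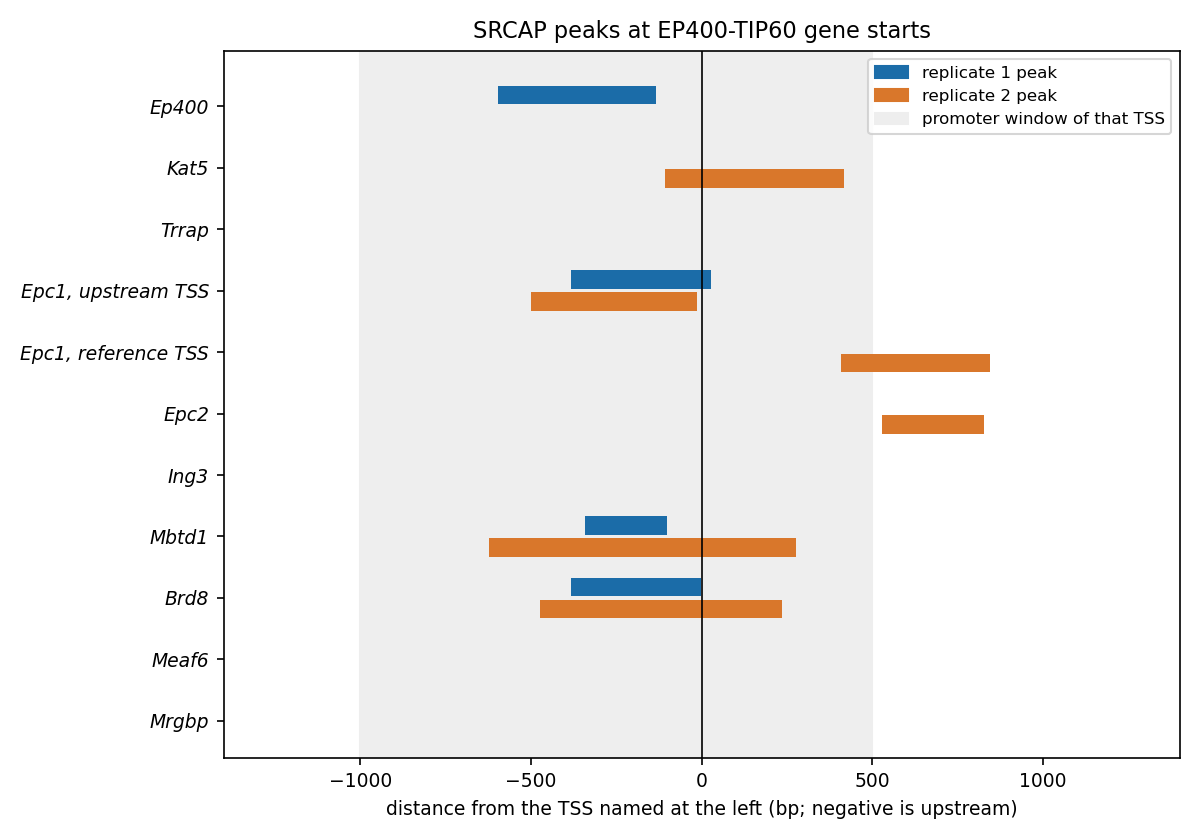
Peaks of replicate 1 (blue) and replicate 2 (orange) around the start sites of the 10 genes, as distance in bp along the direction of transcription, with the promoter window of the plotted TSS in grey and Epc1 drawn at 2 start sites. Epc1 (upstream TSS), Mbtd1 and Brd8 have overlapping peaks of both replicates, and the Epc2 peak begins 29 bp outside the window.

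The sequences under the peaks at Mbtd1, Ep400 and Kat5 and under the peak next to Epc2 are printed below, beside 2 CpG-rich promoters with no peak, those of Ing3 and Meaf6, to let the bound and unbound stretches be read side by side. All are mm10 sequence in the direction of the member gene, stretches within an untranslated region were left out, and Epc1 and Brd8 are described by position only. Capitals mark matches, on either strand, to GGGCGG (the GC box of SP and KLF factors), CCAAT (the box of NFY) or CCGGAAG (a core of ETS factors). The first Mbtd1 stretch, chr11:93885510-93885657 on the plus strand, is covered by peaks of both replicates and is coding sequence of the neighbouring gene Utp18. The second, chr11:93885767-93885851 on the plus strand, lies between the starts of Utp18 and Mbtd1. The Ep400 stretch is chr5:110770718-110771017 on the minus strand, from the peak of replicate 1. The Kat5 stretch, chr19:5610238-5610344 on the minus strand, is the part of the replicate 2 peak that lies upstream of the first exon. The Epc2 stretch, chr2:49452015-49452312 on the plus strand, is the whole replicate 2 peak, in an intron. The Ing3 and Meaf6 stretches are the 250 bp before the reference TSS, at chr6:21949321-21949570 and chr4:125084884-125085133 on the plus strand.
Mbtd1, shared by both peaks: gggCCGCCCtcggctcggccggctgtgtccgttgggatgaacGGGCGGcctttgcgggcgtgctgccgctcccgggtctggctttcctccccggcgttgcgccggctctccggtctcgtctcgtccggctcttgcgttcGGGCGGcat
Mbtd1, between the starts: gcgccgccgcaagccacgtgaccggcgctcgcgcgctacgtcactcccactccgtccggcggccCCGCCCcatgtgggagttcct
Ep400, replicate 1 peak: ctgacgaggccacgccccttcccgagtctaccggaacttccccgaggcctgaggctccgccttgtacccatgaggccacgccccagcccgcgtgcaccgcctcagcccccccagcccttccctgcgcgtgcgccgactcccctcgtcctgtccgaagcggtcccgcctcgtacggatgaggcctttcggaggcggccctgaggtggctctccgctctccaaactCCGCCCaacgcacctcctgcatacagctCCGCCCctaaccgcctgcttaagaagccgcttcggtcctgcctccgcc
Kat5, replicate 2 peak: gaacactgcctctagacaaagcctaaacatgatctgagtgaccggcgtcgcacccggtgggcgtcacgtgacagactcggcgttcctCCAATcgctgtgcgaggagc
Epc2, replicate 2 peak: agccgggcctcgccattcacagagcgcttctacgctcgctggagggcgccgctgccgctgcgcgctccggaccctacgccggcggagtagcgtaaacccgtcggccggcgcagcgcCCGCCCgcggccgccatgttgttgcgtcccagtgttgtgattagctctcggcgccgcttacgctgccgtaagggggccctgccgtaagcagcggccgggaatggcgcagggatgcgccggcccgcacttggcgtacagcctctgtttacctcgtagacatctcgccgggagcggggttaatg
Ing3, no peak: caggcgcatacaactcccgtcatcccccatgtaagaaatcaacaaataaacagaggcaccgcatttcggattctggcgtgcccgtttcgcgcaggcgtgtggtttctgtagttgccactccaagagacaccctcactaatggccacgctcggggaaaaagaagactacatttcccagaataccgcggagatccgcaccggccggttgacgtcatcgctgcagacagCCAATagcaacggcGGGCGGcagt
Meaf6, no peak: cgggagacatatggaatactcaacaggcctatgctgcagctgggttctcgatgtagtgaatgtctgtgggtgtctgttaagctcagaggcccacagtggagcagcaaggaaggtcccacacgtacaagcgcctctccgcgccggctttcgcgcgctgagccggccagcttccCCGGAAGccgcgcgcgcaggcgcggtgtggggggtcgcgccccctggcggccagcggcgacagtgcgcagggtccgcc

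Ep400, the ATPase that gives the complex its name, lies on the minus strand of chromosome 5. Its replicate 1 peak, chr5:110770661-110771124, was 464 bp wide with a score of 62, higher than 84.0% of the promoter peaks of that list and the highest of the 4 member peaks there. The peak covered the most upstream annotated TSS, and its midpoint lay at -176 bp from that site and -366 bp from the reference TSS. It shared 176 bp of exon with the antisense gene Gm15559, so the peak cannot be assigned to one of the 2 genes. In replicate 2 the nearest peak to the reference TSS was 39344 bp away, upstream. Of the 494 promoter peaks of replicate 1 that scored at least as high, 455 (92.1%) were overlapped by a replicate 2 peak, beside 71.2% of all its promoter peaks. The Ep400 peak was thus 1 of 39 strong promoter peaks of replicate 1 with no counterpart.

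Kat5, which encodes the acetyltransferase TIP60, showed the opposite order. Its replicate 2 peak, chr19:5609819-5610344, was 526 bp wide with a score of 47, above 55.8% of the promoter peaks of that list. It covered 7 of the 12 annotated start sites and 386 bp of Kat5 exon, with its midpoint at +155 bp from the reference TSS and -31 bp from the nearest one. In replicate 1 the nearest peak was 38737 bp away, upstream. Such a single call was common in the longer list. Of the 2748 promoter peaks of replicate 2 with a score of at least 47, 53.4% were overlapped in replicate 1. Over all promoter peaks of replicate 2 the share was 35.4%. The genes of the ATPase and of the acetyltransferase were each called once, in different replicates.

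Epc1 and Epc2 encode alternative versions of the Enhancer of polycomb scaffold, which holds the acetyltransferase module together. At Epc1, on chromosome 18, both replicates had a peak at the alternative TSS that lies at -25252 bp from the reference TSS. The replicate 1 peak, chr18:6516082-6516492, was 411 bp wide with a score of 43 and covered this TSS. The replicate 2 peak, chr18:6516123-6516608, was 486 bp wide with a score of 66 and ended just upstream of it, its last base at -15 bp. The peaks shared 370 bp, which is 90.0% of the first and 76.1% of the second, and their midpoints lay at a mean of -218.5 bp ± 55.9 (SD, n = 2) from the upstream TSS.

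Replicate 2 had a further Epc1 peak at the reference TSS, chr18:6490013-6490449, 437 bp wide with a score of 36, the lowest of the member peaks of that list. It ran from +407 to +843 bp, all of it intronic, and also overlapped the antisense gene Gm28529. It is the call closest to the window's downstream edge. At Epc2 the replicate 2 peak of 298 bp, printed above, ran from +529 to +826 bp with a score of 64 and began 29 bp beyond that edge, so Epc2 was not called. Of these peaks on either side of the limit, the Epc2 one had the higher score. A further intronic Epc2 peak of replicate 2, 296 bp wide with a score of 105, lay with its midpoint at +29937 bp, and 100% of its bases are soft-masked repeats. In replicate 1 the peak nearest to the Epc2 start was 275449 bp away.

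Mbtd1 encodes a reader of methylated histone tails, and Brd8 encodes a bromodomain protein. Each is arranged head to head with a neighbour, and each had overlapping peaks in both replicates. Utp18, a ribosome biogenesis gene, starts at -86 bp from the Mbtd1 TSS. The Mbtd1 peak of replicate 1, chr11:93885510-93885751, was 242 bp wide with a score of 42. Its width was close to that of the narrowest peak anywhere in that list (235 bp), and it held no Mbtd1 TSS. All of it lay in exon sequence of Utp18. In replicate 2 the peak, chr11:93885229-93886128, was 900 bp wide with a score of 123, above 95.6% of the promoter peaks by score and 97.2% by width. It covered 3 Mbtd1 start sites and the whole of the replicate 1 peak, which made up 26.9% of its length. Midpoints lay at a mean of -197 bp ± 33.9 (SD, n = 2), while the widths averaged 571 bp ± 465 (SD, n = 2).

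Kif20a, a kinesin gene of cell division, starts at -12 bp from the Brd8 TSS on chromosome 18. The Brd8 peaks were chr18:34624603-34624983 in replicate 1, 381 bp wide with a score of 39, and chr18:34624367-34625076 in replicate 2, 710 bp wide with a score of 53. The first ended 2 bp short of the Brd8 TSS (-2) and the second covered 3 Brd8 start sites. The replicate 1 peak lay wholly inside the other and made up 53.7% of it. The mean midpoint was -156.5 bp ± 50.2 (SD, n = 2). At both pairs most of each peak lay on the neighbour's side of the member's TSS, so the peaks cannot be assigned to Mbtd1 or Brd8 rather than to Utp18 or Kif20a.

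In all 3 genes bound in both replicates, the replicate 2 peak was the wider one, by 1.18 times at Epc1, 3.72 times at Mbtd1 and 1.86 times at Brd8. The midpoints differed by 79, 48 and 71 bp. Replicate 2 peaks were also wider in general, with a median of 409 bp over its 6211 promoter peaks against 354 bp over the 3090 of replicate 1. Within each list the member peaks were mostly above the middle of the promoter peaks by score: 4 of 4 in replicate 1, where the median was 35 and members ranged from 39 to 62, and 4 of 5 in replicate 2, where the median was 43 and members ranged from 36 to 123.

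**Figure D2:**
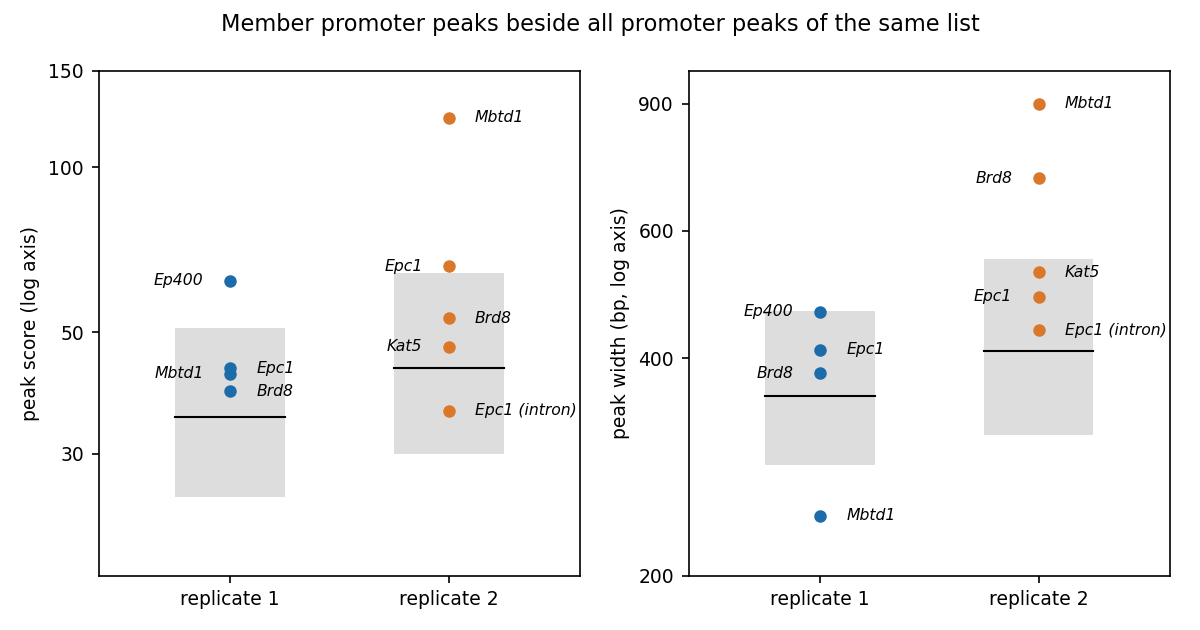
Score (left, log axis) and width in bp (right, log axis) of each member promoter peak, as points, beside the middle 50% (grey box) and median (line) of all promoter peaks of the same list. Mbtd1 is among the narrowest peaks in replicate 1 and the widest member peak in replicate 2, and the intronic Epc1 peak is the only member peak below its list's median score.

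At the remaining members no peak reached a promoter window. Trrap encodes the large pseudokinase scaffold that transcription factors bind, and its 14 start sites gave the list's longest promoter sequence, 16133 bp. Its nearest peaks were 327319 bp away in replicate 1 and 24813 bp in replicate 2. The latter, chr5:144793607-144793943, lay within the gene with a score of 21, 1648 bp outside the nearest promoter window. Ing3 encodes a PHD-finger reader of histone H3 methylated at lysine 4, and its nearest peaks were 732444 bp away in replicate 1 and 76513 bp in replicate 2. For Meaf6, a small subunit that other acetyltransferase complexes also use, they were 25897 and 148175 bp away. For Mrgbp, which binds the MRG-domain subunits, they were 133536 and 148740 bp away.

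The number of start sites and their spacing together set how much sequence can catch a peak, because windows of nearby sites overlap. Ing3, with 8 start sites, had 3451 bp of promoter, and Epc1, with 3, had 4503 bp. Members had 2 to 14 annotated start sites, with a median of 8 beside 3 for all protein-coding genes, and a median of 4736 bp of promoter beside 3002 bp. Among the 3326 genes with 8 or more start sites, 25.6% were bound in replicate 1, 51.4% in replicate 2 and 20.9% in each of them. The 6 members in this class (Ep400, Kat5, Trrap, Ing3, Mbtd1 and Meaf6) gave 2, 2 and 1. Among genes with fewer start sites, of which 10.5% were bound in both replicates, the members were Epc1, Epc2, Brd8 and Mrgbp, and 2 of these 4 were bound in both. Bound and unbound members thus occurred in both classes.

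Base composition was then set beside the calls. A reference promoter was called CpG-rich when the 500 bp around the reference TSS had at least 55% GC and an observed over expected CpG ratio of at least 0.75. In all, 7569 genes had one, and of these 25.0% were bound in replicate 1, 48.4% in replicate 2 and 20.0% in both. Of the 14280 other genes, 10.8%, 20.9% and 7.84% were bound. The 4 members in this second class were Kat5, Trrap, Brd8 and Mrgbp, of which Brd8 was bound in both replicates (25%) and Kat5 in replicate 2 alone, which makes 1 gene (25%) and 2 genes (50%) for the separate lists. The 6 members with a CpG-rich reference promoter were Ep400, Epc1, Epc2, Ing3, Mbtd1 and Meaf6, of which 3 were bound in replicate 1 (50%), 2 in replicate 2 (33.3%) and 2 in both. With 6 genes each one counts for 16.7 percentage points, so the replicate 2 count lay less than 1 gene from the share of the class and the replicate 1 count less than 2 genes from it, and no difference is read from them. In the second class each of the 4 genes counts for 25 percentage points, and its counts lay less than 2 genes from the share of the class. Epc2 had the most GC-rich reference promoter of the list (78% GC, CpG ratio 0.985) and Ing3 the highest CpG ratio (1.13), and neither was called. Brd8, bound in both replicates, had the lowest GC content (51.6%) with a CpG ratio of 0.842.

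**Figure D3:**
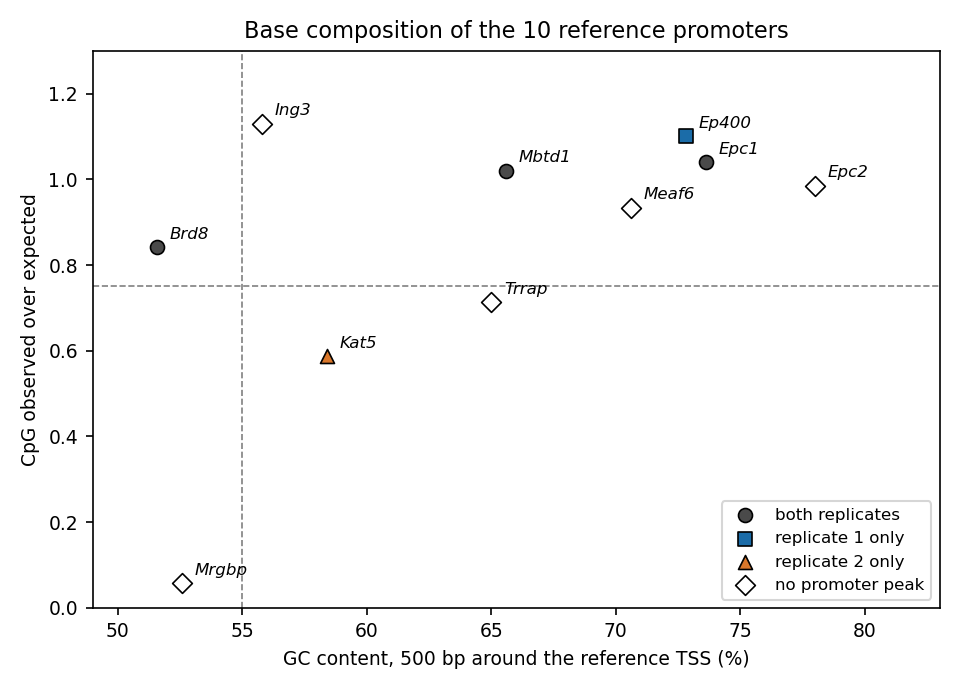
GC content (%) and observed over expected CpG ratio of the 500 bp around the reference TSS of each member, with symbols for the replicates in which the gene had a promoter peak and dashed lines at 55% and 0.75. Bound and unbound members lie among each other, and Mrgbp stands apart with a CpG ratio of 0.0578.

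The choice of TSS matters for 3 of these genes. The reference TSS of Mrgbp lies in CpG-poor sequence, while its TSS at +1408 bp has 64.8% GC and a CpG ratio of 0.8. Kat5 (0.587 at the reference TSS, 0.768 at +186 bp) and Trrap (0.713 at the reference TSS, 0.847 at -250 bp) cross the limit in the same way. When any TSS of a protein-coding transcript could qualify, 9 of the 10 members were CpG-rich, all but Brd8, and 3 of the 9 were bound in each replicate and 2 in both. The shares of all 8809 such genes were 25.2%, 48.6% and 20.2%.

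Mbtd1 and Brd8 were the 2 members with a head-to-head promoter, a class with a higher share of bound genes in these lists. Of 2008 protein-coding genes with a protein-coding TSS on the other strand within 1000 bp upstream of the reference TSS, 30.8% were bound in replicate 1, 56.5% in replicate 2 and 26.4% in both, against 14.2%, 27.8% and 10.6% of the remaining genes. Without Mbtd1 and Brd8, 2 of 8 members were bound in each replicate (25%) and 1 of 8, Epc1, in both (12.5%).

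Short motifs were counted on both strands between -250 and +50 bp of the reference TSS in 21853 protein-coding genes. GGGCGG occurred in 45.4% of these promoters and in 7 of the 10 members (Ep400, Trrap, Epc1, Epc2, Ing3, Mbtd1 and Mrgbp). CCAAT occurred in 38.6% and in 3 members (Kat5, Ing3 and Mrgbp), CCGGAAG in 11.2% and in 2 (Mbtd1 and Meaf6), and AAGATGGC, a YY1 motif, in 3.06% and in Brd8. No member held CGCATGCG (NRF1, 2.65% of promoters), TCTCGCGA (ZBTB33, 1.41%) or TATAAA (the TATA box, 12.5%). These searches count letters only, and the motifs searched do not overlap each other's letters in the printed stretches. In those, 3 GC boxes stand in the Mbtd1 sequence covered by both peaks and 2 in the Ep400 peak, with the CCAAT box of Kat5 centred at -18 bp. The unbound Ing3 stretch holds a CCAAT box and a GC box, and the unbound Meaf6 stretch an ETS core. The GC box thus occurred in bound and unbound members alike.

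The other subunits of EP400-TIP60, which it shares with further complexes, include the RUVBL helicases and actin-related proteins. Of Ruvbl1, Ruvbl2, Actl6a, Dmap1, Yeats4, Vps72, Actb, Morf4l1 and Morf4l2, 3 of 9 were bound in replicate 1 (Ruvbl1, Actl6a and Yeats4), 3 of 9 in replicate 2 (Actl6a, Morf4l1 and Morf4l2), and Actl6a alone in both. Over all 19 subunit genes, 7 were bound in each replicate (36.8%) and 4 in both (21.1%). Of the genes particular to the SRCAP complex, Srcap itself was bound in both replicates, and Actr6 and Znhit1 in neither. Of 11 INO80 subunits, 2 were bound in replicate 1 (Ino80 and Actr5), 6 in replicate 2 and Ino80 alone in both. Beside the 15.7%, 30.4% and 12.0% of all genes, the counts of the other subunits in replicate 2 and in both, and the INO80 counts in replicate 1 and in both, lay within 1 gene of the background.

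**Figure D4:**
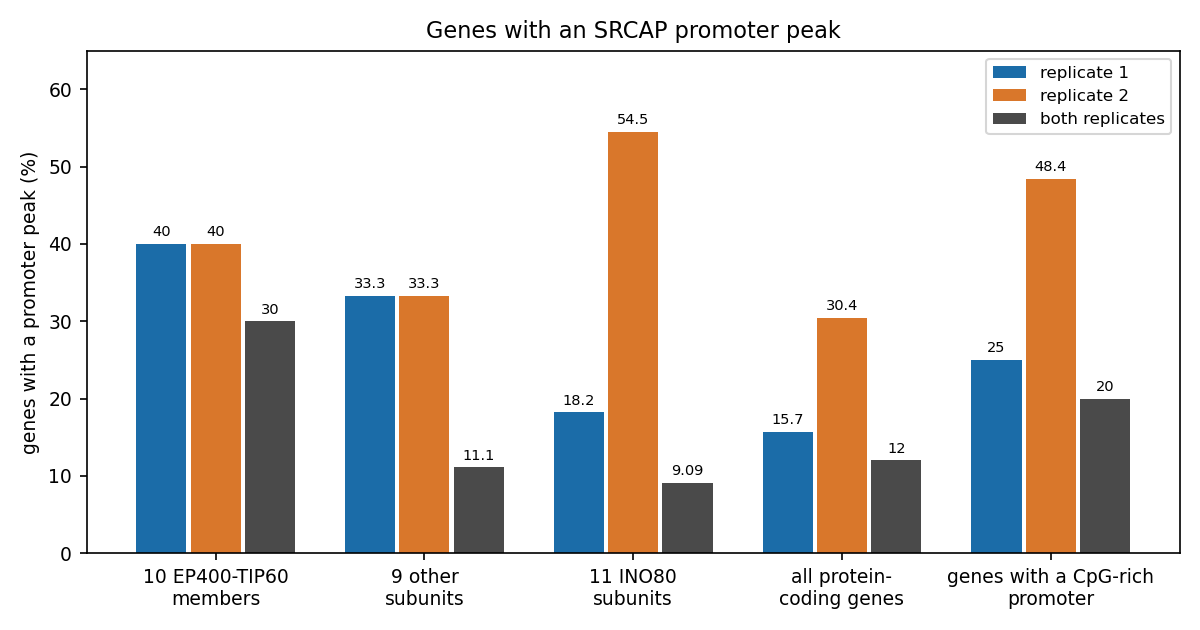
Percentage of genes with a promoter peak in replicate 1 (blue), replicate 2 (orange) and both (grey), for the members, the other subunits, INO80 subunits, all protein-coding genes and genes with a CpG-rich reference promoter. Members stood at 40%, 40% and 30%, and INO80 subunits at 18.2%, 54.5% and 9.09%.

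The calls were recomputed under other definitions of a peak and a promoter. With peaks of a score of at least 50, a limit that need not mean the same in both lists, Ep400 alone was left in replicate 1, Epc1, Mbtd1 and Brd8 in replicate 2, and none in both, while the background fell to 4.21%, 13.1% and 2.99%. When an annotated TSS had to lie inside the peak, Ep400 and Epc1 were left in replicate 1, Kat5, Mbtd1 and Brd8 in replicate 2, and again none in both, beside 9.73%, 20.6% and 6.97%. With the reference TSS alone, Epc1 was lost from replicate 1, which left Mbtd1 and Brd8 in both, beside 13.8%, 27.0% and 10.7% of all genes. A window of 2000 bp on both sides added Epc2 in replicate 2, beside 16.7%, 32.3% and 12.7%. With replicate 2 reduced to the length of replicate 1, the same 4 members were called in it, beside 19.2% of all genes. Trrap, Ing3, Meaf6 and Mrgbp were not called under any of these settings.

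**Figure D5:**
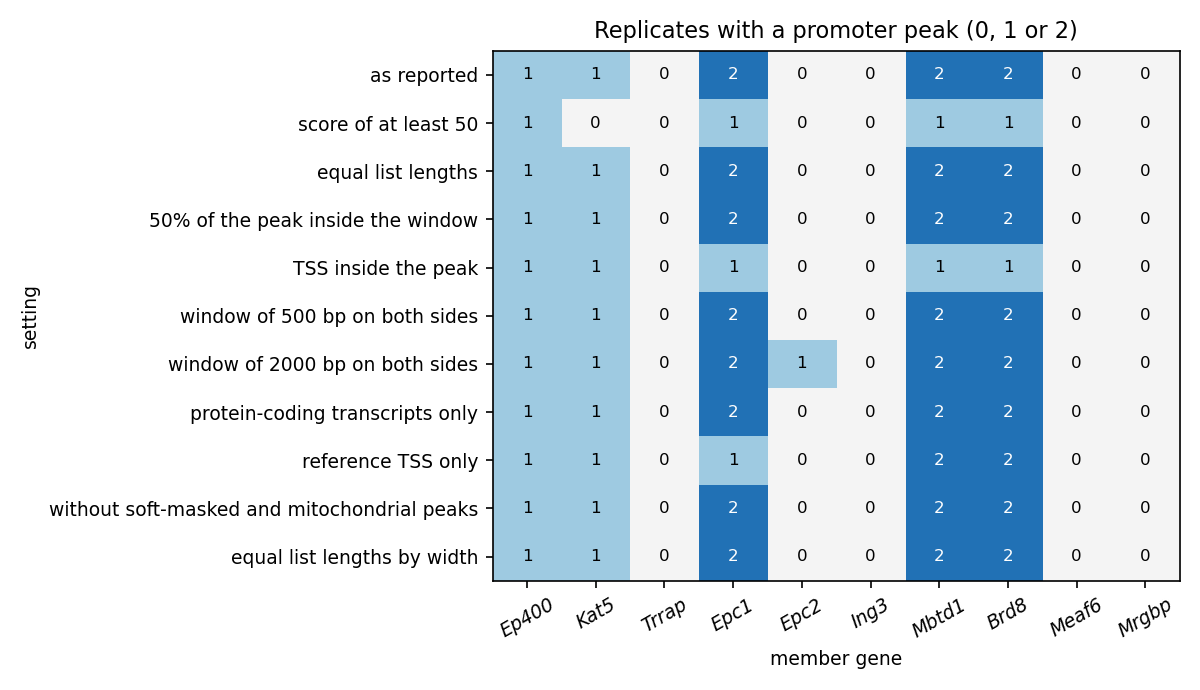
Number of replicates (0, 1 or 2) in which each member had a promoter peak, with genes in columns and settings in rows. Ep400 is at 1 in every row, and Epc1, Mbtd1 and Brd8 fall from 2 to 1 with a score of at least 50 and with a TSS inside the peak, Epc1 also with the reference TSS alone.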

How the data were processed

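SRCAP was profiled by CUT&Tag in 2 samples of 1 group. For each sample the authors deposited a peak list with a score per peak, a whole number of at least 13. Per the submitters' processing notes and the study's methods, reads were aligned to mm10 with STAR, duplicates were removed with Picard and peaks were called with MACS2 in each sample alone. The methods, which treat ChIP-seq and CUT&Tag together, call peaks after scaling down the mouse alignments by Drosophila reads. The study's reporting form gives a q-value of 0.05 for called peaks and a stricter one for a quality check, and shows peak calling against an input, without naming these lists. The lists give no read numbers, so depth, and the precision that depends on it, is unknown.

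The members and lists were chosen with earlier results of these data known. All members are named. Peaks were intersected with GENCODE release 21 promoters in Python 3.11.15, and bases were read from GRCm38, the same assembly as mm10. On simulated peaks the overlaps were the same as those of bedtools 2.31.1 for all 21938 genes (mitochondrial genes were left out). Genes without a protein-coding transcript or with gaps in the sequence were left out of the composition and motif counts. No test was run. Alternatives were 9 planned settings and 1 added after the data were seen, as were the head-to-head class and the class of 8 or more start sites.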

Additional observations from a re-analysis of the deposited data

How the results depend on the processing

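Of 203 values recomputed under other settings, 143 were identical to the reported value. For 32 counts of members, 23 were identical, 5 more lay within 1.5 times the reported count and 4 lay further away. The number of members fell in replicate 1 from 4 to 1 with a score of at least 50 and to 2 with a TSS inside the peak, and in both replicates from 3 to 0 under each of these settings. The other subunits fell with a score of at least 50 to 1 in replicate 1, 1 in replicate 2 and 0 in both, and to 1 in replicate 2 with equal list lengths. These settings keep fewer peaks or overlaps by construction. Leaving out each replicate in turn gave 4 to 4 bound members and 3 to 3 other subunits. Without replicate 1 or 2 the mean width of the Mbtd1 peak of 571 bp became 900 or 242 bp. The Epc1 midpoint was -25470.5 bp from the reference TSS and -218.5 bp from the nearest TSS. No paired analysis was possible because both samples belong to the same group. Depth is unknown, so a gene without a peak may lie below detection.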
